A study of Rattus norvegicus with 18 samples.

Results

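The Klf4 locus and the Sik1 locus are compared here by the open chromatin peaks that lie around them in cultured rat neurons. The peaks come from ATAC-seq, in which the Tn5 transposase cuts and tags accessible DNA, and are given in the Rn6 genome build. The Klf4 window ran 500 kb to each side of the Klf4 start site, from 71787669 to 72787669 on chromosome 5. The Sik1 window ran 500 kb to each side of the middle of a pair of enhancers that the study draws with Sik1, from 10124801 to 11124801 on chromosome 20. Every peak that overlapped a window was taken, which gave 81 peaks around Klf4 and 109 around Sik1, or 190 of the 192830 peaks in the list.

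The list was made from 18 libraries in 6 groups of 3. Primary neurons of the cortex, the hippocampus or the striatum were taken from Sprague-Dawley rats at embryonic day 18 and grown to 11 days in vitro (DIV). Each kind of culture received Neurobasal medium as vehicle or potassium chloride (KCl) for 1 h. The sample labels give 25 mM KCl and the text on the design gives 10 mM. Libraries of a kind of culture were pooled over both treatments before peaks were called, and the peaks of the 3 kinds were then merged into the list. It therefore holds no value for a single library or group. There were no replicates for any value below, the sequencing depth behind a peak is unknown, and vehicle and KCl could not be compared. Each peak has a start, an end and a whole number from 1 to 10 in the fourth column. What this number stands for is not given in the sources used here, and it is not read below as the strength of a peak.

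Klf4 encodes a zinc finger transcription factor that binds GC-rich and CACCC-type elements and is best known for its part in reprogramming cells to pluripotency. In neurons of the central nervous system it is known as a brake on axon growth. Sik1 encodes a salt-inducible kinase of the AMPK-related family that acts on the CRTC coactivators of CREB, and its own gene is a target of CREB. Depolarization with KCl opens calcium channels and is a usual way to switch on activity-dependent genes in cultured neurons.

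Both genes were found by symbol in the RefSeq promoter table, which uses the GRCr8 build and holds 250 bases before and 50 bases after a start. The upstream stretch of Sik1 is shown because matches to CRE-type and GC box motifs lie in it. It is GRCr8 chr20:9958730-9958896, minus strand, and is the portion of the window outside the outer bounds of the RefSeq gene. Capitals mark matches to the partial cyclic AMP response element (CRE) TGACG and to the GC box GGGCGG, on either strand, and adjoining matches run together.
Sik1: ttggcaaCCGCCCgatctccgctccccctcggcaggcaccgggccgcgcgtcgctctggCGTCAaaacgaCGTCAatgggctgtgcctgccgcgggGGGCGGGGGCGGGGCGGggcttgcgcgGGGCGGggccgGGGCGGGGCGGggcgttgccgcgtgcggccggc

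The full 300-base window of Sik1 held 2 matches to TGACG and 8 matches to GGGCGG, and 7 of the latter lie in the stretch above. Among all 33469 promoter windows of that length, 4.96% held 2 or more matches to TGACG and 21.2% held at least 1. GGGCGG was present in 33.1% of them, and 8.97% held 3 or more matches. The window of Klf4 held no match to either motif and had 2 matches to the TATA box TATAAA. Both of these lay on the strand opposite to the gene, at -146 and -78 from the start used, and are not read as TATA boxes of Klf4. At least 1 match to TATAAA was present in 14.2% of all windows, and 2.62% held 2 or more. The table places this Klf4 window inside the outer bounds of the RefSeq gene, which reach 590 bases further upstream than the start used, so the Klf4 letters are not printed. The Sik1 start used is internal too, by 83 bases, so the counts for the full windows take in bases inside either gene.

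None of the other motifs had a match in either window. These were the full CRE TGACGTCA (present in 1.83% of all windows), the AP-1 element TGANTCA (7.33%), the CCAAT box CCAAT (37.5%), the KLF core CACCC (54.9%) and the CArG box (1.64%). Every TGACGTCA also contains TGACG. The share of G and C was 81.3% in the Sik1 window, at the 99.4 percentile of all windows, and 45.0% in the Klf4 window, at the 25.9 percentile. The number of CpG dinucleotides was 55 for Sik1 and 11 for Klf4, against a median of 7. A match is a description of letters and not of binding, and no sequence of a peak was read because no Rn6 genome was used here.

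Over the 1 Mb windows, and against the spread over the autosomes given further on, the loci differed most in the fourth-column values of their peaks. In the Klf4 window 8 of 81 peaks had a value of 3 or more, or 9.88% (Wilson 95% interval 5.09 to 18.3%), where the share over all autosomal peaks was 19.3%. In the Sik1 window 39 of 109 peaks did, or 35.8% (27.4 to 45.1%). Over these windows the Klf4 locus was below the share of the autosomes and the Sik1 locus above it, and the intervals cover variation between peaks only. With 250 kb on each side the shares were 20% (10.5 to 34.8%) and 26.7% (17.1 to 39.0%), so that Klf4 was no longer below the autosomal share. Both of these intervals held the autosomal share, and they overlapped. Those smaller windows held 80 peaks per Mb around Klf4 and 120 around Sik1.

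Peaks with a value of 1 showed the opposite order. They made up 45 of the 81 peaks around Klf4, or 55.6% (44.7 to 65.9%), beside 48.4% of autosomal peaks. Around Sik1 they were 31 of 109, or 28.4% (20.8 to 37.5%). Peaks with a value of 2 were about as frequent at both loci and in the background, with 28 around Klf4 (34.6%), 39 around Sik1 (35.8%) and a share of 32.3% over the autosomes. Values of 4 or more, which 0.545% of autosomal peaks have, were held by 0 peaks around Klf4 and by 2 around Sik1.

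**Figure D1:**
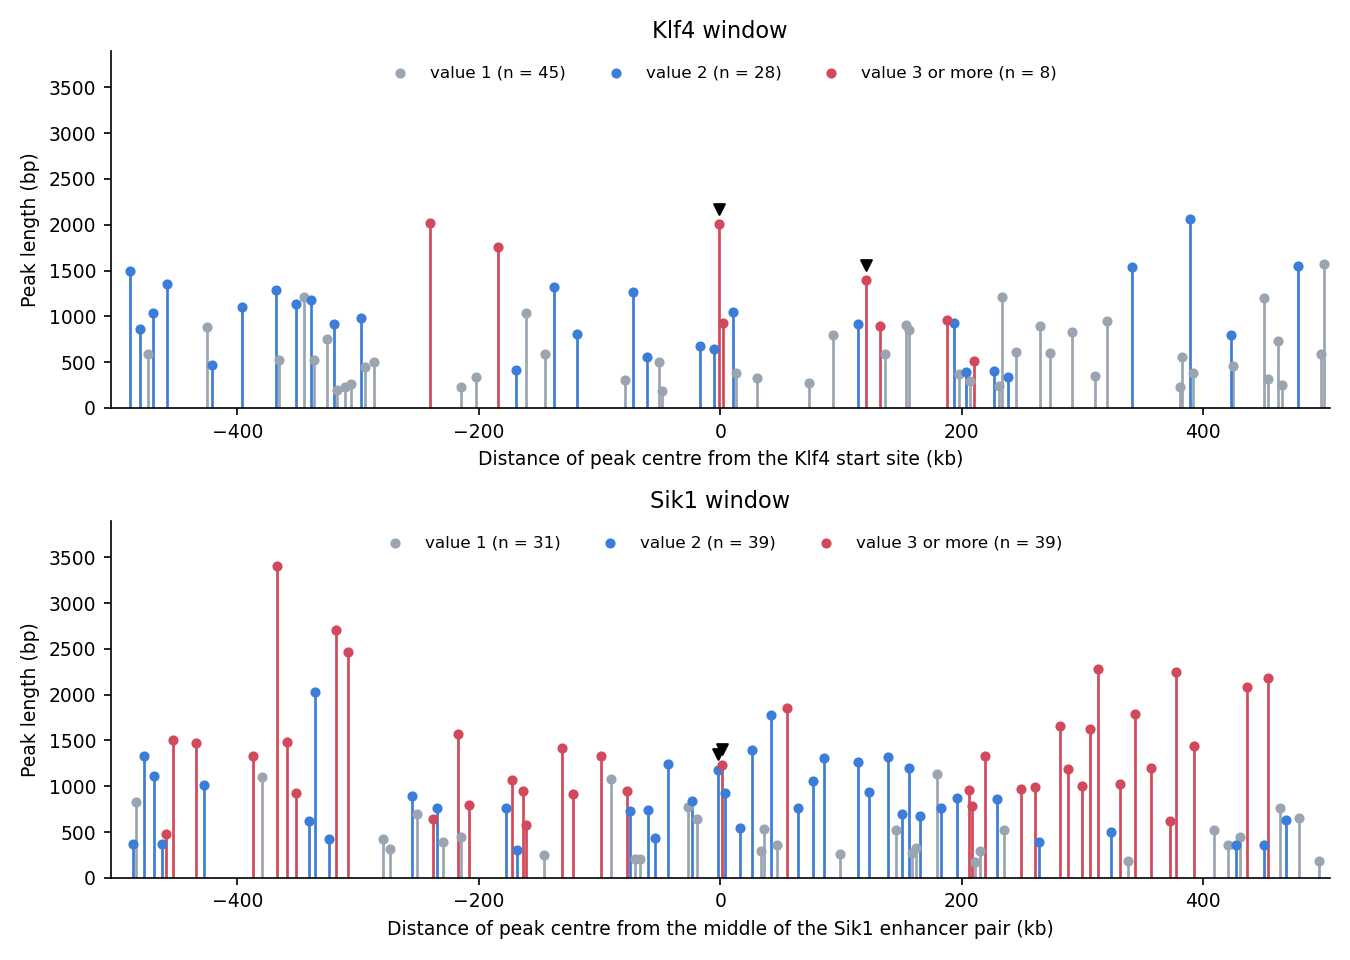
Length of each peak in bp (y axis) against the distance of its centre in kb (x axis) from the Klf4 start site (top, 81 peaks) and from the middle of the Sik1 enhancer pair (bottom, 109 peaks). Colours give the fourth-column value, and triangles mark the Klf4 start site peak, the Klf4 enhancer and both Sik1 enhancers. The 8 peaks with a value of 3 around Klf4 all lie within 250 kb of the start site, while 39 peaks valued 3 or more around Sik1 reach toward both ends of the window.

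Where the windows stand in the genome was read from 2609 complete 1 Mb windows tiled over the 20 autosomes. A percentile here is the percent of these windows with a lower value plus 0.5 times those with an equal one, and it is a description with no test. The 81 peaks around Klf4 were at the 60.6 percentile, close to the median window of 74 peaks and inside the quartiles of 53 and 91. The 109 peaks around Sik1 were at the 93.4 percentile, with 162 windows holding more. Among the 56 windows of chromosome 20 the Sik1 locus ranked somewhat lower, at the 88.4 percentile. Klf4 was at the 65.3 percentile among the 173 windows of chromosome 5.

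Covered length gave the same order. Peaks covered 63398 bp of the Klf4 window, or 6.34%, at the 54.5 percentile. They covered 103383 bp of the Sik1 window, or 10.3%, at the 94.7 percentile, and 138 autosome windows had more. Within their own chromosomes the ranks were 60.1 for Klf4 and 83.9 for Sik1. The difference of 39985 bp between the loci was a little larger than the interquartile range over the autosome windows, which was 37635 bp, whereas the difference of 28 peaks was smaller than the interquartile range of 38 peaks.

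Shares and median lengths were placed only among the 2582 autosome windows with 10 or more peaks. The share of peaks with a value of 3 or more was at the 26.1 percentile for Klf4 and at the 92.2 percentile for Sik1. The 25.9 percentage points between the loci exceeded the interquartile range over the windows, which was 14.1 points from 9.52 to 23.6%. Within their own chromosomes these ranks were 29.4 and 91.1. For the share of value 1 the percentiles were 66.2 for Klf4 and 3.25 for Sik1, and 66.9 and 10.7 within the chromosome. The Klf4 locus therefore lay between the quartiles of the autosome windows in both shares, in peak number and in covered length, and the Sik1 locus lay outside them in each.

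Windows with more peaks tended to have a larger share of value 3 or more. Spearman's rho between these quantities was 0.42 over the 2582 windows, which share the same libraries and depth and are not independent samples. Only 26 of them had both at least as many peaks and at least as large a share of value 3 or more as the Sik1 locus. For Klf4 there were 955 such windows.

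**Figure D2:**
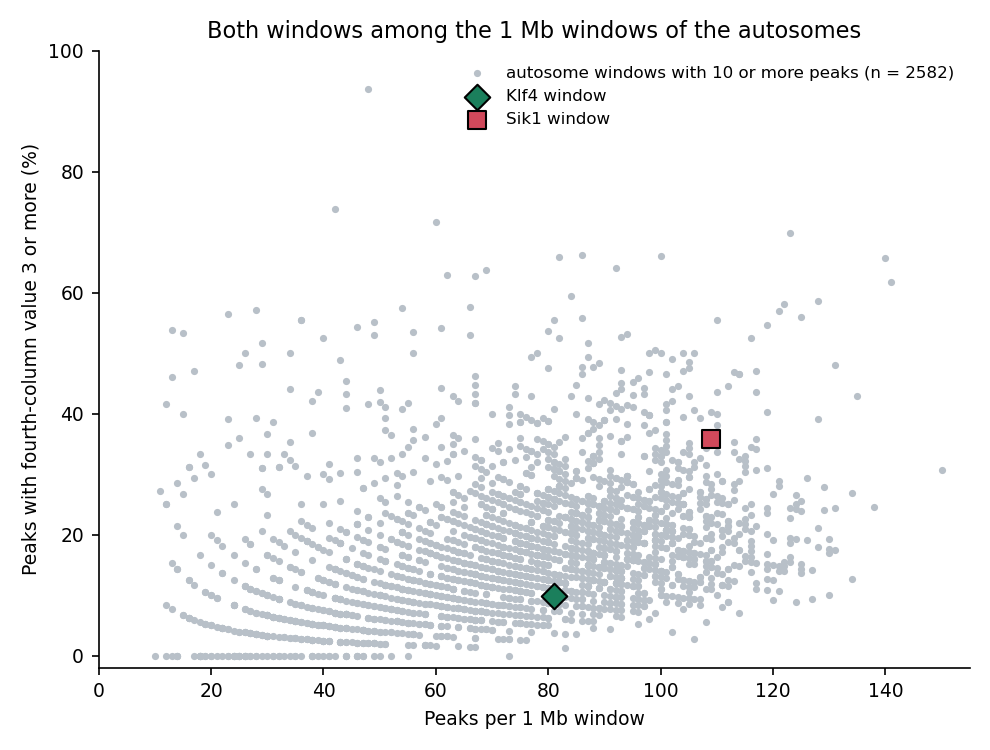
Share of peaks with a fourth-column value of 3 or more in percent (y axis) against the number of peaks (x axis) in 2582 autosome windows of 1 Mb with 10 or more peaks (grey). The Klf4 window (diamond, 81 peaks, 9.88%) lies among the bulk of the windows, and the Sik1 window (square, 109 peaks, 35.8%) lies toward the upper right.

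The loci also differed in where the peaks of value 3 or more stood. The zones are centred on unlike points, a start site for Klf4 and an enhancer pair for Sik1. They were not recomputed around the Klf4 enhancer, so the comparison holds for these centres only. All 8 peaks with a value of 3 around Klf4 had their centres within 250 kb of the start site, where they were 8 of 40 peaks, or 20% (10.5 to 34.8%). Between 250 and 500 kb there were 0 of 41, a count that the boundary fixes, since it was chosen with these positions in view and the outermost of the 8 lie 240.5 kb below and 210.4 kb above the start site. Around Sik1 the outer share was the larger one, with 16 of 60 peaks within 250 kb, or 26.7% (17.1 to 39.0%), and 23 of 49 farther out, or 46.9% (33.7 to 60.6%), although these intervals overlap. This lay on the side above the pair, where the shares were 6 of 33 inner peaks (18.2%) and 14 of 26 outer peaks (53.8%). Below the pair they were about equal, at 10 of 27 (37.0%) and 9 of 23 (39.1%). Peaks of 1 pooled list are not replicates, so these shares are descriptions of the loci. The order of the inner shares depended on the width of the zone. Klf4 was slightly higher within 150 kb, with 19.0% against 18.2%, and within 200 kb, with 20.7% against 19.6%. Sik1 was higher within 300 kb, with 29.0% against 17.4%, and within 350 kb, with 32.5% against 14.0%.

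The inner share minus the outer share was 20 percentage points for Klf4, at the 96.5 percentile of 2456 autosome windows with at least 10 peaks in each zone. It was -20.3 points for Sik1, at the 3.46 percentile, and the median window was at -0.75 points. The signs at both loci were the same with the boundary at 150, 200, 300 or 350 kb. The ranks depended on the boundary. For Klf4 they ran from the 87.7 percentile with 150 kb (12.4 points) to the 96.5 percentile with 250 kb, and stood at 91.6 with 350 kb (14.0 points). For Sik1 they ran from the 0.62 percentile with 200 kb (-28.1 points) over 5.70 with 300 kb to 14.6 with 350 kb (-12.3 points).

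Outside the Klf4 window, the nearest peaks of value 3 or more were at 71740181-71741635 and at 72885267-72886515. They lay 547 kb below the start site in coordinate and 598 kb above it. Counted from the outermost such peaks inside the window, the stretches without one were 304529 bp below and 386984 bp above. Other peaks lay in them, and most of each stretch is inside the window, where it restates the outer zone without such peaks. The same stretches were 40953 bp and 54962 bp for Sik1. Over the autosomes 3.90% of the 36079 spacings between successive peaks of value 3 or more were at least as wide as the lower Klf4 stretch. For the upper Klf4 stretch it was 2.67%. The median of the autosomal spacings was 30694 bp. Inside the windows the median spacing was 53943 bp around Klf4 and 13898 bp around Sik1. The widest inside the Klf4 window was 181294 bp, from 72104644 to 72285939, which ends at the start site peak. The widest inside the Sik1 window, 148941 bp from 10681337 to 10830279, began 56.5 kb above the middle of the enhancer pair.

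Both loci had peaks in every bin of 50 kb. The bins held from 2 to 8 peaks with a median of 4 around Klf4, and from 2 to 8 with a median of 5 around Sik1. A peak of value 3 or more was missing from 13 of 20 bins around Klf4 and from 4 of 20 around Sik1. The share of such bins over the autosomes was not computed, so neither count is read as unusual. The 4 bins from 200 to 400 kb above the Sik1 anchor held 4 such peaks each, as did the bin from 350 to 400 kb below it. The peaks were spread almost evenly over the sides of each anchor, with 39 below and 42 above the Klf4 start site and 50 below and 59 above the middle of the Sik1 pair. Klf4 is on the minus strand in RefSeq, so higher coordinates are its upstream side. On that side 27 of 42 peaks had a value of 1 (64.3%), against 18 of 39 on the other (46.2%), beside 48.4% over the autosomes. No interval was computed for these 2 shares, so the sides are not read as unlike.

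**Figure D3:**
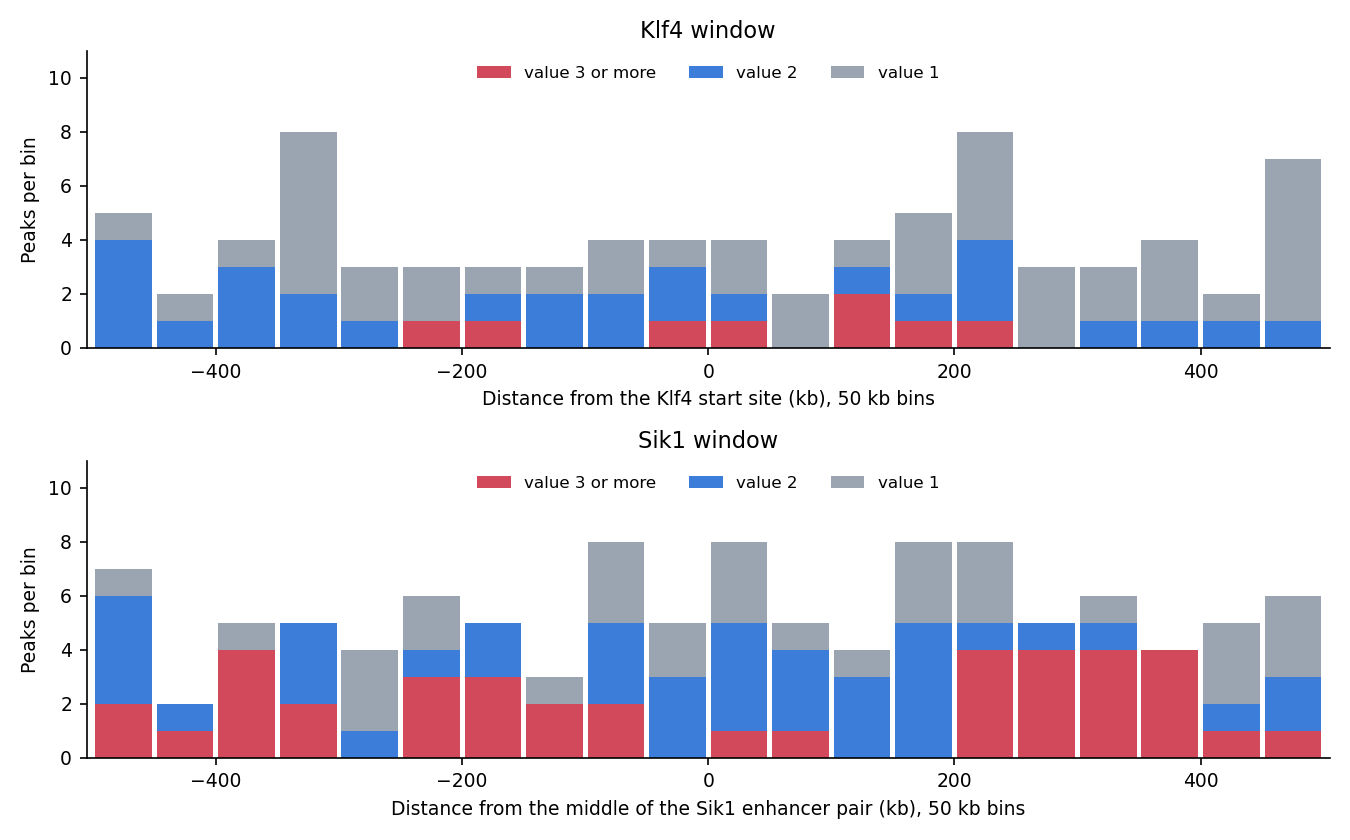
Number of peaks per 50 kb bin (y axis), stacked by fourth-column value, against the distance in kb (x axis) from the Klf4 start site (top) and from the middle of the Sik1 enhancer pair (bottom). Peaks of value 3 or more are missing from the outer 5 bins on each side of Klf4 and number 4 in each bin from 200 to 400 kb above the Sik1 pair and in the bin from 350 to 400 kb below it.

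Order along the chromosome gave a similar account. The longest run of neighbouring peaks with a value of 1 was 6 peaks around Klf4, spanning 75508 bp from 72532766 to 72608273, at the 60.9 percentile of the autosome windows. Around Sik1 no such run exceeded 2 peaks, which placed it at the 1.69 percentile. The longest run with values of 2 or more was 10 peaks around Sik1, from 10873802 to 10956536, at the 90.1 percentile. Around Klf4 the longest such run was 5 peaks from 72270395 to 72298740, at the 43.8 percentile, and the start site lies in it. The Klf4 runs were thus ordinary among the autosome windows.

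The Klf4 start site, at 72287669, was covered by a peak of value 3 from 72285939 to 72287942. It reached 273 bp past the start on the upstream side and 1731 bp to the other side, the start base included. It was the third longest peak of the window, with a length of 2004 bp at the 94.8 percentile of autosomal peaks and at the 80.4 percentile of those with a value of 3 or more. Its neighbours were a peak of value 2 and 646 bp at 72282256-72282901 and a peak of value 3 and 933 bp at 72289811-72290743, 1868 bp upstream. These were the only neighbouring peaks in the Klf4 window that both had a value of 3, apart from the enhancer and the peak beside it.

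That enhancer, at 72407353-72408745, had its centre 120380 bp upstream of the start site and a value of 3. With 1393 bp it was the ninth longest peak of the window, near the middle (54.8 percentile) of autosomal peaks in that class of value. On its side toward the gene the next peak was at 72401611-72402527, with 917 bp and a value of 2, and on the far side at 72419886-72420784, with 899 bp and a value of 3. Between the start site peak and the enhancer lay 7 peaks, of which 4 had a value of 1, 2 a value of 2 and 1 a value of 3. These covered 4666 of 119410 bp, or 3.91%. This share leaves out the long peaks at both ends of the interval, so it is not compared with that of the window.

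The Sik1 enhancers were a close pair with unlike values. The first, at 10622573-10623753, was 1181 bp long with a value of 2. The other, at 10625795-10627030, was 1236 bp long with a value of 3. A gap of 2041 bp separated them. The neighbours on the outer sides were a peak of 645 bp and value 1 at 10605114-10605758 and a peak of 922 bp and value 2 at 10628629-10629550, which was only 1598 bp away. Within its value class neither enhancer was extreme in length, at the 78.9 percentile of value 2 and the 43.8 percentile of value 3 or more.

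Within 100 kb of the middle of the Sik1 pair, 4 of 26 peaks had a value of 3 or more, or 15.4% (6.15 to 33.5%), an interval that holds the autosomal share of 19.3%. Within 100 kb of the Klf4 start site the share was much the same, with 2 of 14 peaks, or 14.3% (4.01 to 39.9%). Of the 24 other peaks with centres within 100 kb of each enhancer, 4 had such a value for the first and 2 for the other. The 4 include the other enhancer itself and the peak at 10525544-10526870, which lies just past the limit for the other. The nearest such peak to the other enhancer, at 10679482-10681337, was 53997 bp away from centre to centre and 1856 bp long. For the Klf4 enhancer 3 of 14 other peaks within 100 kb had a value of 3, the nearest 12286 bp away. The position of the Sik1 start site in Rn6 was not used here, so no peak is assigned to its promoter.

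Close neighbours were not more common at the Sik1 locus. Pairs of adjacent peaks no farther apart than the Sik1 enhancers were 12 of 80 around Klf4 and 9 of 108 around Sik1, beside 10.5% of adjacent pairs over the autosomes. Pairs this close in which both peaks reached 1000 bp made up 0.358% of autosomal pairs. There were 0 around Klf4 and 1 around Sik1, which is the enhancer pair itself and counts by construction, since its own gap set the limit. Requiring a value of 3 or more in both peaks as well left 0 pairs at either locus, since the first Sik1 enhancer has a value of 2, and 284 pairs (0.15%) over the autosomes. The median gap between adjacent peaks was 6959 bp around Klf4 and 6013 bp around Sik1, against 7836 bp over the autosomes.

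The median length was 841 bp around Sik1 (95% interval from order statistics 733 to 970 bp), at the 92.5 percentile of autosome windows, and 730 bp around Klf4 (558 to 895 bp), at the 69.3 percentile. The difference of 111 bp was smaller than the interquartile range of 139.5 bp over the autosome windows, and the intervals of the loci overlapped. Peaks of 1000 bp or more were 42 of 109 around Sik1 (38.5%) and 22 of 81 around Klf4 (27.2%), beside 28.2% over the autosomes. At 2000 bp or more there were 8 around Sik1 and 3 around Klf4, where the autosomal share was 5.29%. Peaks under 300 bp, with an autosomal share of 15%, numbered 10 at each locus.

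Lengths were also compared within each class of value. Peaks of value 1 had a median of 524 bp around Klf4 (376 to 597 bp) and 429 bp around Sik1 (294 to 533 bp), where the autosomal median was 430 bp. For value 2 the medians were 956 bp around Klf4 (798 to 1177 bp), 765 bp around Sik1 (678 to 1016 bp) and 829 bp over the autosomes. For value 3 or more they were 1175 bp from 8 peaks around Klf4 (516 to 2019 bp), 1327 bp around Sik1 (994 to 1506 bp) and 1325 bp over the autosomes. The intervals of the loci overlapped in every class. Each interval at either locus also held the autosomal median of its class. With autosomal mean lengths for each class, the mix of values at each locus would give mean lengths of 755 bp for Klf4 and 1026 bp for Sik1, beside measured means of 790 bp and 948 bp.

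**Figure D4:**
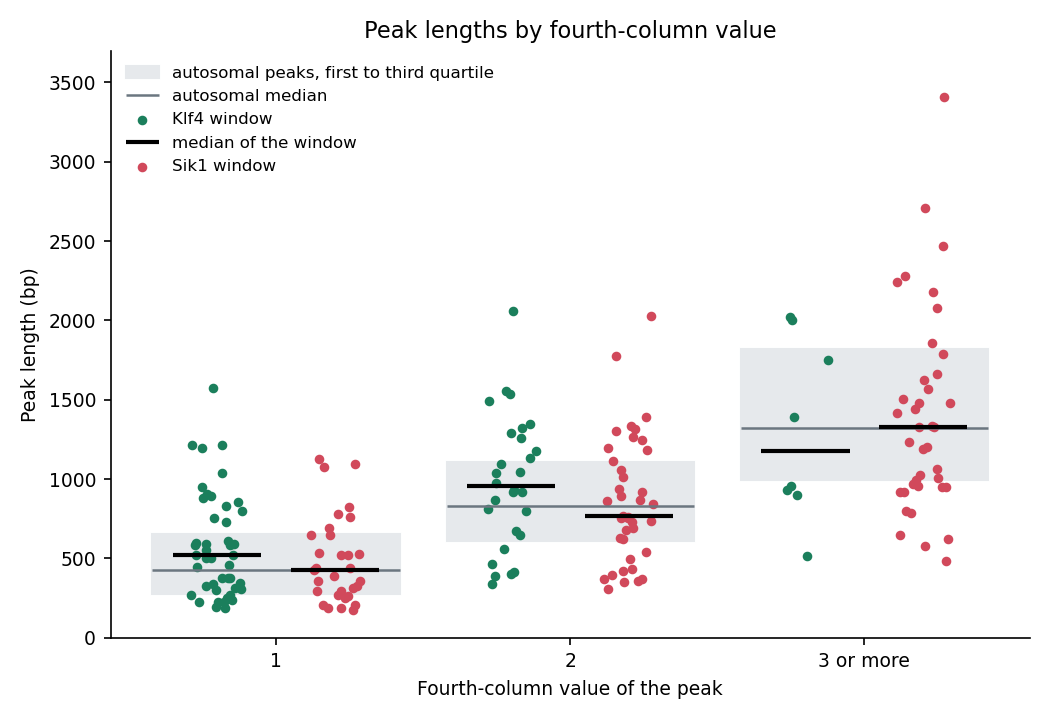
Length in bp (y axis) of every peak in the Klf4 and Sik1 windows by fourth-column value (x axis), with a black bar at the median of each window. Grey boxes span the first to the third quartile of all autosomal peaks of that value and grey lines are their medians, so that the Klf4 bars of 524 bp and 956 bp for values 1 and 2 lie above the autosomal medians of 430 bp and 829 bp.

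The longest peaks of the Sik1 locus stood far from its enhancers. They were 3408 bp long at 10255812-10259219 with a value of 3, 2709 bp at 10305009-10307717 with a value of 4, and 2470 bp at 10315577-10318046 with a value of 3. The first of these was at the 99.3 percentile of autosomal peak lengths. All of them lay from 308 to 367 kb below the enhancer pair. The other peak with a value of 4, at 10936469-10938751 and 2283 bp long, lay 313 kb above it and closed a run of 5 peaks of value 3 or more over 33193 bp. Another run of 5 such peaks, from 10967633 to 11018103, followed it, and no run in that window was of more peaks.

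Around Klf4 the longest peak, 2061 bp at 72676146-72678206, had a value of only 2 and lay 390 kb upstream of the start site. It was at the 96.5 percentile of peaks with that value. The next was 2019 bp at 72046165-72048183 with a value of 3, and the start site peak followed. The shortest peaks both had a value of 1, with 190 bp at 72239187-72239376 around Klf4 and 175 bp at 10835910-10836084 around Sik1.

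Neither 1 Mb window held a long stretch without peaks. The widest around Klf4 was 44970 bp, between the peak of 501 bp and value 1 at 72000694-72001194 and the 2019 bp peak. Around Sik1 it was 39235 bp, between a peak of 1016 bp and value 2 at 10196985-10198000 and a peak of 1334 bp and value 3 at 10237236-10238569. These widths were at the 17.1 and 9.83 percentiles of the autosome windows, whose median was 69240 bp. Within their own chromosomes the ranks were about level, at 16.2 for Klf4 and 17.0 for Sik1. With 1 Mb on each side the widest stretch around Klf4 was 70398 bp, and that around Sik1 stayed at 39235 bp. Gaps over 20 kb numbered 14 of 80 around Klf4 (17.5%) and 4 of 108 around Sik1 (3.70%), beside 17.4% over the autosomes, so the Klf4 share was that of the background.

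The genes beside each locus were read from the RefSeq gene order of GRCr8, which was used for names only. Of the 10 nearest genes of Klf4, 5 on each side, 1 was protein-coding, namely Rad23b, whose product takes part in nucleotide excision repair. The other neighbours were 4 long noncoding RNAs, snoRNA and tRNA genes and pseudogenes, and a gene model named LOC120103069, listed as protein-coding, overlaps Klf4 itself. Of the 10 nearest genes of Sik1, 3 were protein-coding and 7 were long noncoding RNAs. The protein-coding ones were Cryaa, a lens crystallin, U2af1, a splicing factor, and Hsf2bp. No annotation of Rn6 was used here, so peaks are not called exonic, intronic or intergenic.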

How the data were processed

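ATAC-seq was run on 18 libraries of cultured rat neurons. The submitters' processing notes name FastQC, Trim Galore 0.4.5, Bowtie2 2.3.4.2, SAMtools 1.9, MACS2, bedtools and the Rn6 build. Peaks were called on libraries pooled by kind of culture, joined where no more than 1000 bp apart within a kind, and then merged over the 3 kinds. The authors deposited 1 such list with start, end and a fourth-column number (1 to 10, handled as a score of unstated meaning) for each of 192830 peaks. The shortest was 146 bp. Depth per library was not used here, and no test between groups was made.

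Starts were converted to 1-based positions. Counts, covered length, gaps and shares were computed with Python 3.11.15, pandas 2.3.3, scipy 1.17.1 and numpy 2.4.6, with plots by matplotlib 3.10.9. Counting in windows was tested on simulated peaks. Intervals of shares are Wilson 95% intervals. Autosome windows ran from position 1 to the last peak of each chromosome. Peaks named are those over the Klf4 start site and the enhancers drawn with either gene, their neighbours, the 3 longest and the shortest in each window, those with a value of 4 or more, and those beside the widest gap. Other peaks named in the text were chosen after their values were seen. The members and lists were chosen with earlier results of these data known. Alternatives changed window size, centre, membership, minimum length, merging, extension and the comparison windows.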

Additional observations from a re-analysis of the deposited data

How the results depend on the processing

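No paired analysis was possible because the peak list pools all libraries. Membership by centre, window size, the centre of the Klf4 window, minimum length and merging were changed for peak number, covered length, their percentiles, median length, the shares of values 1 and 3 or more and the widest gap. Other results were not recomputed under them. Under these the Sik1 locus had the higher peak number per Mb (96.5 to 120 against 71.0 to 82.0 for Klf4), covered length, median length and share of value 3 or more (windows of 250 kb or more on each side), and Klf4 the higher share of value 1 and the wider maximal gap. Extension was run for covered length and its percentile, and other comparison windows for the percentiles, where Sik1 was also higher. With peaks extended by 500 bp, covered length became 143782 bp for Klf4 and 212703 bp for Sik1. The percentile of covered length for Sik1 became 90.0 with 250 kb and 91.8 with 1 Mb on each side. With 250 kb on each side, the share of value 3 or more moved to 20% for Klf4 and 26.7% for Sik1. Klf4 was then no longer below the autosomal 19.3%, and the Sik1 interval (17.1 to 39.0%) held that share. The smaller windows leave out the outer zones. The percentile of peak number for Klf4 became 58.0 with 250 kb on each side, 63.1 with a minimum length of 300 bp and 65.3 within its chromosome. For Sik1 it became 95.5 with 250 kb on each side, 87.0 with 1 Mb, 95.8 with a minimum length of 300 bp, 94.9 with peaks 1000 bp or less apart merged (their values summed) and 88.4 within its chromosome. The cause of these shifts was not tested. Windows without a peak numbered 0, so leaving them out changed nothing. The boundaries of 150, 200, 300 and 350 kb for the inner zone were added after the data were seen. Within 150 and 200 kb the share of value 3 or more was slightly higher for Klf4 (19.0% against 18.2%, and 20.7% against 19.6%).

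The list gives no reads per peak, so depth limits all values and lengths in an unknown way. Peaks near each other share libraries and are not independent, and with 1 pooled list and 1 window per gene no difference between the loci has a replicate check. The fourth-column value has no stated meaning, and its relation to the kind of culture or to KCl was not tested.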
